A study of Homo sapiens with 8 samples.

Results

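The genes described here encode the enzymes that place N6-methyladenosine on RNA and those that take it off. They were chosen by symbol from a list of known components: 8 writers (METTL3, METTL14, METTL16, WTAP, RBM15, RBM15B, ZC3H13 and CBLL1) and 2 erasers (FTO and ALKBH5), 10 of the 35369 genes with a symbol in the deposited table. All 10 were among the 13030 genes with enough signal to test. N6-methyladenosine is the most common internal modification of messenger RNA. METTL3 and METTL14 form the core of the writer complex that deposits it on messenger RNA, METTL3 as the catalytic subunit and METTL14 as the partner that holds the RNA. The mark is read by proteins such as IGF2BP2, and METTL3 and METTL14 are known to sustain the growth of acute myeloid leukemia cells.

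The data are polyadenylated RNA libraries of MOLM13 cells, a human line of acute myeloid leukemia, 2 in each of 4 groups. The controls carried the genotype label WT, the knockdown cells the label IGF2BP2 knockdown, and the remaining groups the labels IGF2BP2 rescue and IGF2PB2-mut rescue (so spelled), here called rescue and mutant rescue. The treatment text, the same for all groups, describes infection with virus, and puromycin where selection was needed. It names neither the hairpin, the mutation nor a control vector, and whether the rescue cells carried the hairpin is not stated in the sources used here. Replicates are not stated to be separate cultures, so the p-values measure the spread among these libraries and that spread may be technical.

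Values are normalized log2 values as the authors deposited them, with the depth of each library unknown. A gene was called changed where limma's moderated test gave a Benjamini-Hochberg adjusted p under 0.05 over all 13030 genes, and log2 differences are given with their standard error (SE) or 95% interval. Of 12 myeloid markers all were tested, with a mean log2 level of 9.48 to 10.06 per library. Single markers moved more than that mean: LYZ read 14.99 and 15.36 in control, 17.13 and 17.07 in knockdown, 16.66 and 16.88 in rescue and 17.86 and 18.51 in mutant rescue, and CSF1R read 8.33 and 8.24 in control and 9.39 to 10.01 in every other library. HOXA9 went the other way, at 11.33 and 11.42 in control, 10.65 and 10.71 in knockdown and 10.71 and 10.84 in mutant rescue. Rescue stood between, at 11.22 and 11.11. FLT3 read 13.49 and 13.17 in control, 12.86 and 12.93 in knockdown, 13.34 and 13.25 in rescue and 13.05 and 12.64 in mutant rescue. PTPRC read 11.8 and 11.9 in control and 12.6 to 13.0 in every other library. CD33 was expressed, and KIT and CD14 stayed near 4 in all libraries. Of 5 T-cell, 4 B-cell and 4 erythroid markers 1, 1 and 0 had enough signal to test, with CD3E, MS4A1 and HBA1 listed at 0. Those tested were TRAC (6.88 to 7.44) and PAX5 (4.64 to 5.39). Of 4 epithelial markers 3 were tested, KRT18 (5.75 to 6.63), KRT8 (5.14 to 5.54) and CDH1 (4.75 to 5.36). Of 5 fibroblast markers 0 were tested. The targeted gene IGF2BP2 was 0.67 lower in knockdown than in control (adjusted p = 0.0147), a call lost without either control or either knockdown library (adjusted p = 0.0662, 0.0754, 0.119 and 0.123). In the authors' deposited table IGF2BP2 was 0.87 lower in knockdown than in control (adjusted p = 1.15e-07). The limma call held in all 9 alternatives other than leaving out a library. IGF2BP2 was also 0.39 higher in rescue (11.36 and 11.13) than in mutant rescue (11.03 and 10.68), and this did not pass limma's test (adjusted p = 0.0839). In that contrast the level of IGF2BP2 and the mutation cannot be told apart. Mutant rescue was the noisiest group: the SD over genes of the log2 gap between its replicates was 0.30, against 0.15 in knockdown, 0.21 in control and 0.23 in rescue. A list of 12 interferon-response genes averaged 7.24 and 7.28 in control, 7.68 and 7.77 in knockdown, 12.64 and 12.75 in rescue and 10.76 and 10.75 in mutant rescue. A list of 9 mitochondrially encoded genes averaged 12.71 and 13.11, 13.12 and 13.18, 12.73 and 12.82, and 13.31 and 13.81 in the same order. In bulk samples a lower transcript level in every cell and fewer cells that express it cannot be told apart.

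Of the members, 3 (WTAP, RBM15 and METTL16) passed the test in mutant rescue against control, and the 250 bases before their RefSeq start sites (GRCh38.p14) are shown for that reason. RefSeq windows were found for all 10 members. Capitals mark matches, on either strand, to an interferon-stimulated response element (ISRE: GAAA, any 2 bases, GAAA), a gamma-activated site (GAS, TTCNNNGAA), a CCAAT box (CCAAT), an E-box (CACGTG) or an SP1 site (GGGCGG). The window of WTAP, the first of its 2 start sites, lies on the plus strand at chr6:159726867-159727116, that of RBM15 on the plus strand at chr1:110339127-110339376 and that of METTL16 on the minus strand at chr17:2511889-2512138.
WTAP: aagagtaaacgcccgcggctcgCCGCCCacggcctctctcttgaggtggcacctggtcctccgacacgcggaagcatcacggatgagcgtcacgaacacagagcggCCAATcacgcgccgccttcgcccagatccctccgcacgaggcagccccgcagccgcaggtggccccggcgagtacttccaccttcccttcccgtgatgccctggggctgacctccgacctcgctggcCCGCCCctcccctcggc
RBM15: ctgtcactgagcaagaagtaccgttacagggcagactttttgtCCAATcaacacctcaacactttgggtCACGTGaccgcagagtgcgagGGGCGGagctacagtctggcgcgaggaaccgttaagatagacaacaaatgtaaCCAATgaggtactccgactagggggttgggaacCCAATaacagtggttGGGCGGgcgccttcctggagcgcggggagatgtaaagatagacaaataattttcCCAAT
METTL16: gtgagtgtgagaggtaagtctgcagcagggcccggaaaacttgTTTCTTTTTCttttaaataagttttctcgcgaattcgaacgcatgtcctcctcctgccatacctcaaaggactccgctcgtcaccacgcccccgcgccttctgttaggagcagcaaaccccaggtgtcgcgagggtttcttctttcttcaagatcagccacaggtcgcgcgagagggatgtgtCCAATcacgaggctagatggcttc

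Among 35116 RefSeq start windows of this length, 3.02% hold the ISRE letters, 6.57% the GAS letters, 32.0% CCAAT, 6.34% the E-box and 42.6% the SP1 letters. The METTL16 window holds an ISRE match on its minus strand, 207 to 198 bases before the start, and 1 CCAAT box. The RBM15 window holds 4 CCAAT boxes, 1 E-box and 2 SP1 matches, and the WTAP window 1 CCAAT box and 2 SP1 matches. The letters of the ISRE and of GAS are not in the WTAP or RBM15 window. METTL3, whose level hardly moved, has a GAS match 57 to 49 bases before its start. WTAP has the most GC-rich of these 3 windows at 70.0% GC, against 51.6% for RBM15 and 53.2% for METTL16. The median over all windows is 58.0%. Among members that were not called, the RBM15B window has 74.8% GC and the ALKBH5 window 70.0%. A match is a description of the letters and shows no binding.

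In knockdown against control none of the 10 members passed limma's test, where 12.8% of all genes tested did, and 1, ZC3H13, had an unadjusted p under 0.05. Over the members the median log2 difference was -0.13, against 0.01 over all genes, and 8 of 10 lay below 0. The libraries of 5 members, METTL3, METTL16, RBM15, ZC3H13 and CBLL1, were lower in both knockdown libraries than in both control libraries, and 31.4% of all genes were. With IGF2BP2 given back, 6 members (METTL3, WTAP, RBM15, ZC3H13, CBLL1 and FTO) were higher in both rescue libraries than in both knockdown libraries, as were 31.3% of all genes. None passed in rescue against knockdown (4.24% of all genes did) or in rescue against control (7.18%), where 1 member (CBLL1) and 0 members had an unadjusted p under 0.05 by limma. With the mutant, 1 member was called against knockdown (WTAP, higher, where 11.3% of all genes were called) and 3 against control (WTAP higher, RBM15 and METTL16 lower, where 24.9% of all genes were called, 13.9% higher and 11.0% lower). Rescue against mutant rescue gave 1 call, RBM15, higher in rescue, with 10.5% of all genes called. By the adjusted p of the authors' deposited table, the members called were 0 in knockdown against control (20.1% of all genes tested), 1 in rescue against knockdown (10.1%), 1 in mutant rescue against knockdown (7.87%), 0 in rescue against mutant rescue (7.66%), 0 in rescue against control (8.10%) and 2 in mutant rescue against control (16.8%). These comparisons share the control, knockdown or rescue libraries, and their counts are not independent of each other.

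**Figure D1:**
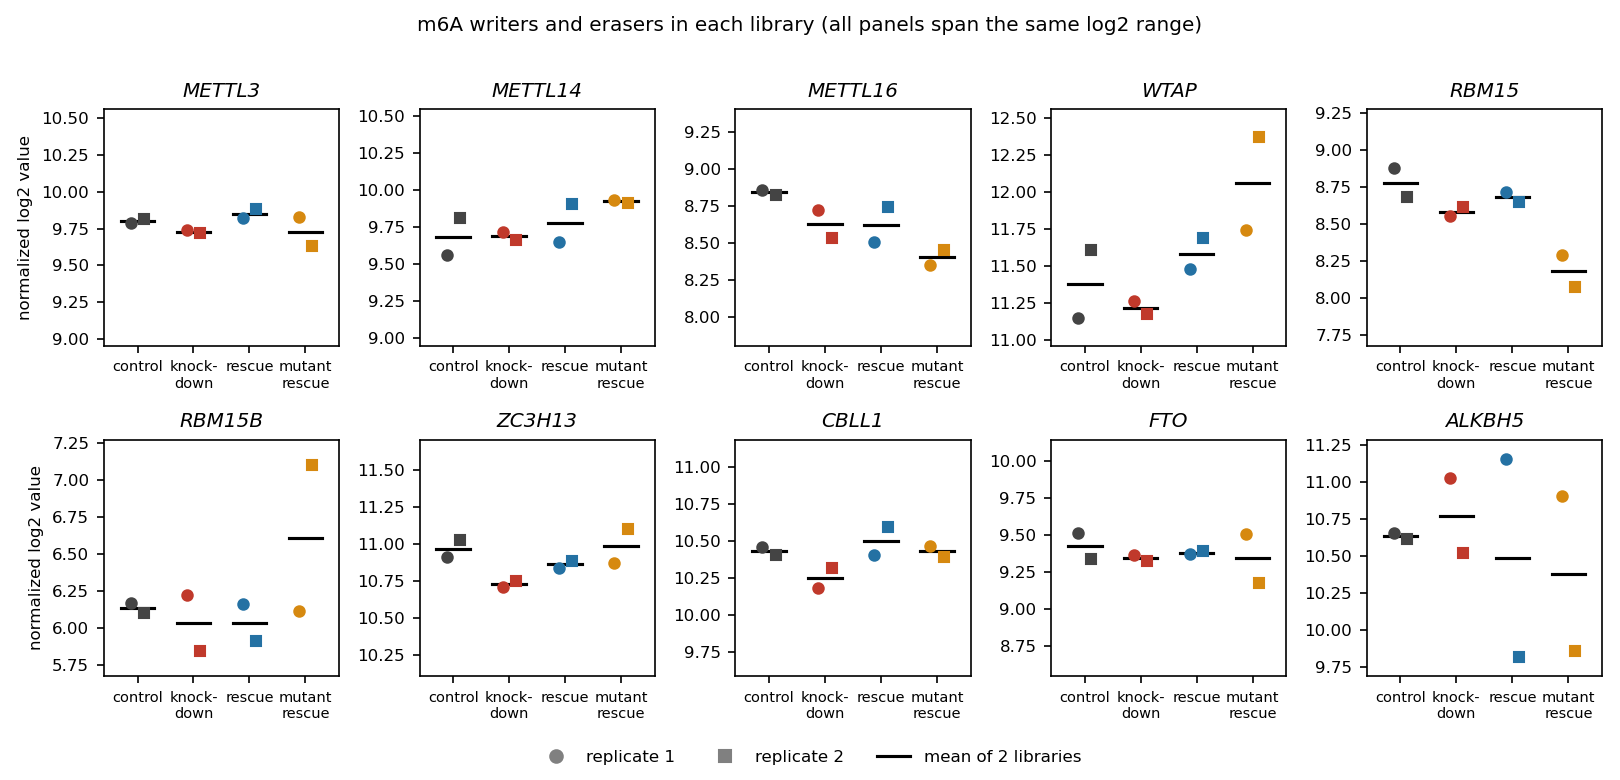
Deposited normalized log2 values (vertical axis) of the 10 members, 1 panel a gene, in control, knockdown, rescue and mutant rescue. Each point is a library, with its replicate number by shape, and each bar the mean of 2 libraries. WTAP is highest in mutant rescue (11.75 and 12.37), RBM15 lowest there (8.29 and 8.07), and ALKBH5 is spread within rescue and mutant rescue.

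METTL3 (chromosome 14, 21498133 to 21511375, minus strand, GRCh38) read 9.79 and 9.82 in control, 9.74 and 9.72 in knockdown, 9.82 and 9.88 in rescue and 9.83 and 9.63 in mutant rescue. Its range over the 8 libraries, 0.25, was smaller than that of all but 5.31% of genes, and the median gene ranged over 0.54. Knockdown differed from control by -0.08 (95% interval -0.30 to 0.15, adjusted p = 0.663) and mutant rescue by -0.07 (-0.30 to 0.15, adjusted p = 0.603). Of the exon bases of METTL3, 6.58% lie on the opposite strand to exons of TOX4.

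METTL14, which binds the RNA beside METTL3 (chromosome 4, 118685368 to 118715433, plus strand), read 9.56 and 9.81 in control, 9.72 and 9.66 in knockdown, 9.65 and 9.91 in rescue and 9.93 and 9.91 in mutant rescue. Both mutant rescue libraries stood above both control and both knockdown libraries, while control and knockdown overlapped. The differences of mutant rescue were 0.24 from control (95% interval -0.04 to 0.52, adjusted p = 0.186) and 0.23 from knockdown (-0.05 to 0.52, adjusted p = 0.219), and neither passed. Knockdown differed from control by 0.01 (-0.28 to 0.29, adjusted p = 0.984). Within a library, METTL14 minus METTL3 was -0.23 and -0.01 in control, -0.02 and -0.06 in knockdown, -0.17 and 0.03 in rescue and 0.11 and 0.28 in mutant rescue, so the balance of the 2 core transcripts was highest in mutant rescue. No test was run on this difference.

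METTL16 acts apart from that complex: it methylates the U6 small nuclear RNA and hairpins of the MAT2A transcript, which encodes the enzyme that makes the methyl donor S-adenosylmethionine. METTL16 (chromosome 17, 2405562 to 2511891, minus strand) read 8.86 and 8.83 in control, 8.72 and 8.54 in knockdown, 8.51 and 8.75 in rescue and 8.35 and 8.46 in mutant rescue. All other libraries lay below both control libraries, and mutant rescue lay lowest. Mutant rescue was 1.36-fold lower than control, a log2 difference of -0.44 (SE 0.13, 95% interval -0.73 to -0.15, adjusted p = 0.0352). In the authors' deposited table the change was -0.60 (adjusted p = 0.102). Knockdown (-0.21, adjusted p = 0.301) and rescue (-0.22, adjusted p = 0.362) did not pass against control. The call in mutant rescue was lost without control replicate 1 or 2 (adjusted p = 0.134 and 0.103), knockdown replicate 1 or 2 (0.0623 and 0.0622) and mutant rescue replicate 1 or 2 (0.0814 and 0.0535), with the change between -0.49 and -0.39 in all fits that left out 1 library, and in a fit of only the groups compared (0.0815).

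WTAP recruits METTL3 and METTL14 to nuclear speckles and to their targets. WTAP (chromosome 6, 159725585 to 159756319, plus strand) read 11.15 and 11.61 in control, 11.26 and 11.18 in knockdown, 11.48 and 11.69 in rescue and 11.75 and 12.37 in mutant rescue. Both mutant rescue libraries stood above all other libraries, and control overlapped knockdown and rescue. Group means were 11.22 ± 0.06 (SD, n = 2) in knockdown, 11.38 ± 0.33 in control, 11.58 ± 0.15 in rescue and 12.06 ± 0.44 in mutant rescue, and no neighbours in that order differed by the test (adjusted p = 0.666, 0.644 and 0.165). WTAP was 1.79-fold higher in mutant rescue than in knockdown, a log2 difference of 0.84 (SE 0.21, 95% interval 0.36 to 1.33, adjusted p = 0.0423), and 1.6-fold higher than in control (0.68, SE 0.21, interval 0.20 to 1.17, adjusted p = 0.0473). In the authors' deposited table these changes were 1.03 (adjusted p = 0.000540) and 0.85 (0.0154), and there WTAP also passed in rescue against knockdown (0.45, adjusted p = 0.0214), where the limma fit gave 0.36 (adjusted p = 0.395).

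Both WTAP calls were close to the threshold. The call against knockdown was lost without knockdown replicate 1 or 2 (adjusted p = 0.175 and 0.240), without rescue replicate 1 or 2 (0.0570 and 0.0566) and without mutant rescue replicate 2 (0.129, with a difference of 0.53). The call against control was lost without control replicate 1 (0.255, with a difference of 0.45), without knockdown or rescue libraries in turn (0.0762, 0.0762, 0.0601 and 0.0600) and without mutant rescue replicate 2 (0.199, with a difference of 0.37). Adjusted p for the call against knockdown was 0.0512 with no filter on low values, 0.0539 with no mean trend, 0.0795 in a fit of only the groups compared and 0.0984 with quantile normalization. For the call against control these were 0.0582, 0.0591, 0.0870 and 0.0602, with 0.0532 under a robust prior and 0.0527 with libraries centred on their median. Without mutant rescue replicate 1 the difference from rescue passed too (-0.79, adjusted p = 0.0222). Exons of SOD2 on the opposite strand cover 437 of the 6419 exon bases of WTAP (6.81%), and no source used here gives the strand setting of the authors' counting. SOD2 was lower in mutant rescue (10.88 and 10.89) than in every other library (11.18 to 11.34), the opposite direction to WTAP. Interferon-response genes, whose levels stand above, were higher in rescue than in mutant rescue, while WTAP was highest in mutant rescue. Mitochondrially encoded genes were highest in mutant rescue replicate 2, as was WTAP. Their part in the WTAP result was not tested.

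RBM15 and RBM15B are related RNA-binding proteins that bring the complex to particular transcripts, through their contact with WTAP. RBM15 (chromosome 1, 110338506 to 110346681, plus strand) read 8.88 and 8.68 in control, 8.55 and 8.61 in knockdown, 8.71 and 8.65 in rescue and 8.29 and 8.07 in mutant rescue. Both mutant rescue libraries lay below all others. Mutant rescue was 1.51-fold lower than control, a log2 difference of -0.60 (SE 0.12, 95% interval -0.88 to -0.32, adjusted p = 0.0105), and this was the strongest call among the members. Of the 8 fits that left out 1 library it was lost in 1, without control replicate 1 (-0.50, adjusted p = 0.0714) and passed in the authors' deposited table (-0.83, adjusted p = 0.0268). Rescue was 1.41-fold higher than mutant rescue (0.50, SE 0.12, interval 0.22 to 0.78, adjusted p = 0.0390), and the authors' table gave 0.71 (adjusted p = 0.106). That call did not hold when knockdown replicate 1 or 2 (adjusted p = 0.0881 and 0.0880), either rescue library (0.129 and 0.140) or mutant rescue replicate 2 (0.124) was left out, nor in a fit of only the groups compared (0.143). Against knockdown the difference of -0.40 did not pass (adjusted p = 0.0673), and passed without mutant rescue replicate 1 (-0.51, adjusted p = 0.0327). Exons of the antisense gene RBM15-AS1 cover 3.75% of the exon bases of RBM15. The interferon and mitochondrial lists given above differ between rescue and mutant rescue as well, and their part in the RBM15 and METTL16 results was not tested, nor was that of the myeloid markers.

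RBM15B (chromosome 3, 51391268 to 51397908, plus strand) read 6.17 and 6.10 in control, 6.22 and 5.84 in knockdown, 6.16 and 5.91 in rescue and 6.12 and 7.11 in mutant rescue. A single library, mutant rescue replicate 2, stood apart from all others, and the rest of the groups overlapped. The difference of mutant rescue from knockdown was 0.58 (95% interval -0.06 to 1.22, adjusted p = 0.185), and from control 0.48 (adjusted p = 0.236). In the authors' deposited table these changes were larger, 1.39 (adjusted p = 0.118) and 1.22 (0.109), and rescue minus mutant rescue was -1.44 (0.116) where the fit gave -0.58 (0.196). Whether values were drawn together in the deposited columns was not tested. If they were, the fitted differences are understated, for this low gene and for others. The called changes of WTAP, RBM15 and METTL16 were also larger in the authors' table. For RBM15 in mutant rescue against control it gave -0.83, where the fit gave -0.60. Without mutant rescue replicate 1 the RBM15B difference of mutant rescue from knockdown was 1.07, and without replicate 2 it was 0.08. Without replicate 1 the RBM15B difference from control was 0.97, and that of rescue minus mutant rescue was -1.07. Exons of DCAF1 on the opposite strand, listed under the older symbol VPRBP, cover 20.0% of its exon bases, and VPRBP read 8.72 and 8.68 in mutant rescue, below every other library (8.88 to 9.52).

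**Figure D2:**
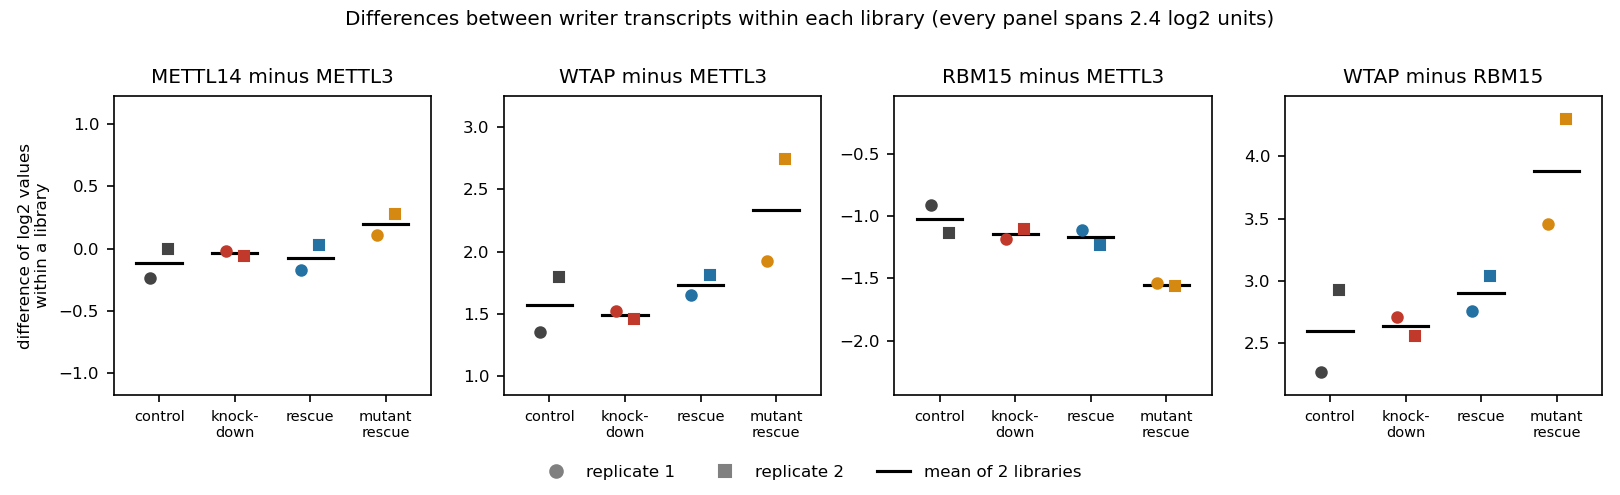
Within-library log2 differences between writer genes (vertical axis) by group. Each point is a library, with its replicate number by shape, and each bar the mean of 2 libraries. WTAP minus METTL3 ran from 1.36 to 1.81 outside mutant rescue and was 1.92 and 2.74 in it, while RBM15 minus METTL3 ran from -1.23 to -0.91 outside mutant rescue and was -1.54 and -1.56 in it.

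Set against METTL3 in the same library, WTAP and RBM15 parted in mutant rescue. WTAP minus METTL3 was 1.36 and 1.79 in control, 1.52 and 1.46 in knockdown, 1.65 and 1.81 in rescue and 1.92 and 2.74 in mutant rescue. RBM15 minus METTL3 was -0.91 and -1.14, -1.19 and -1.11, -1.11 and -1.23, and -1.54 and -1.56 in the same order. WTAP minus RBM15 was 3.46 and 4.30 in mutant rescue and at most 3.04 in every other library. These differences cancel any scaling factor common to a library, and because the values are not known to be per length, they say nothing of which gene is more abundant.

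ZC3H13 holds WTAP and its partners in the nucleus, and CBLL1, also called HAKAI, is a ring-finger protein of the same subcomplex. ZC3H13 (chromosome 13, 45954465 to 46052759, minus strand) read 10.91 and 11.03 in control, 10.71 and 10.75 in knockdown, 10.84 and 10.88 in rescue and 10.87 and 11.10 in mutant rescue. Its knockdown libraries were the lowest 2, and the difference from control was -0.24 (95% interval -0.48 to -0.0015, adjusted p = 0.170). Mutant rescue exceeded knockdown by 0.25 (adjusted p = 0.128), a difference that passed only without mutant rescue replicate 1 (0.37, adjusted p = 0.0410). CBLL1 (chromosome 7, 107743697 to 107761667, plus strand) read 10.46 and 10.40 in control, 10.18 and 10.32 in knockdown, 10.40 and 10.59 in rescue and 10.47 and 10.39 in mutant rescue. It too was lowest in the knockdown libraries, by -0.18 from control (interval -0.42 to 0.05, adjusted p = 0.275), and rescue stood 0.25 above knockdown (interval 0.02 to 0.48, adjusted p = 0.224). Neither gene passed the test in any of the 6 contrasts.

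**Figure D3:**
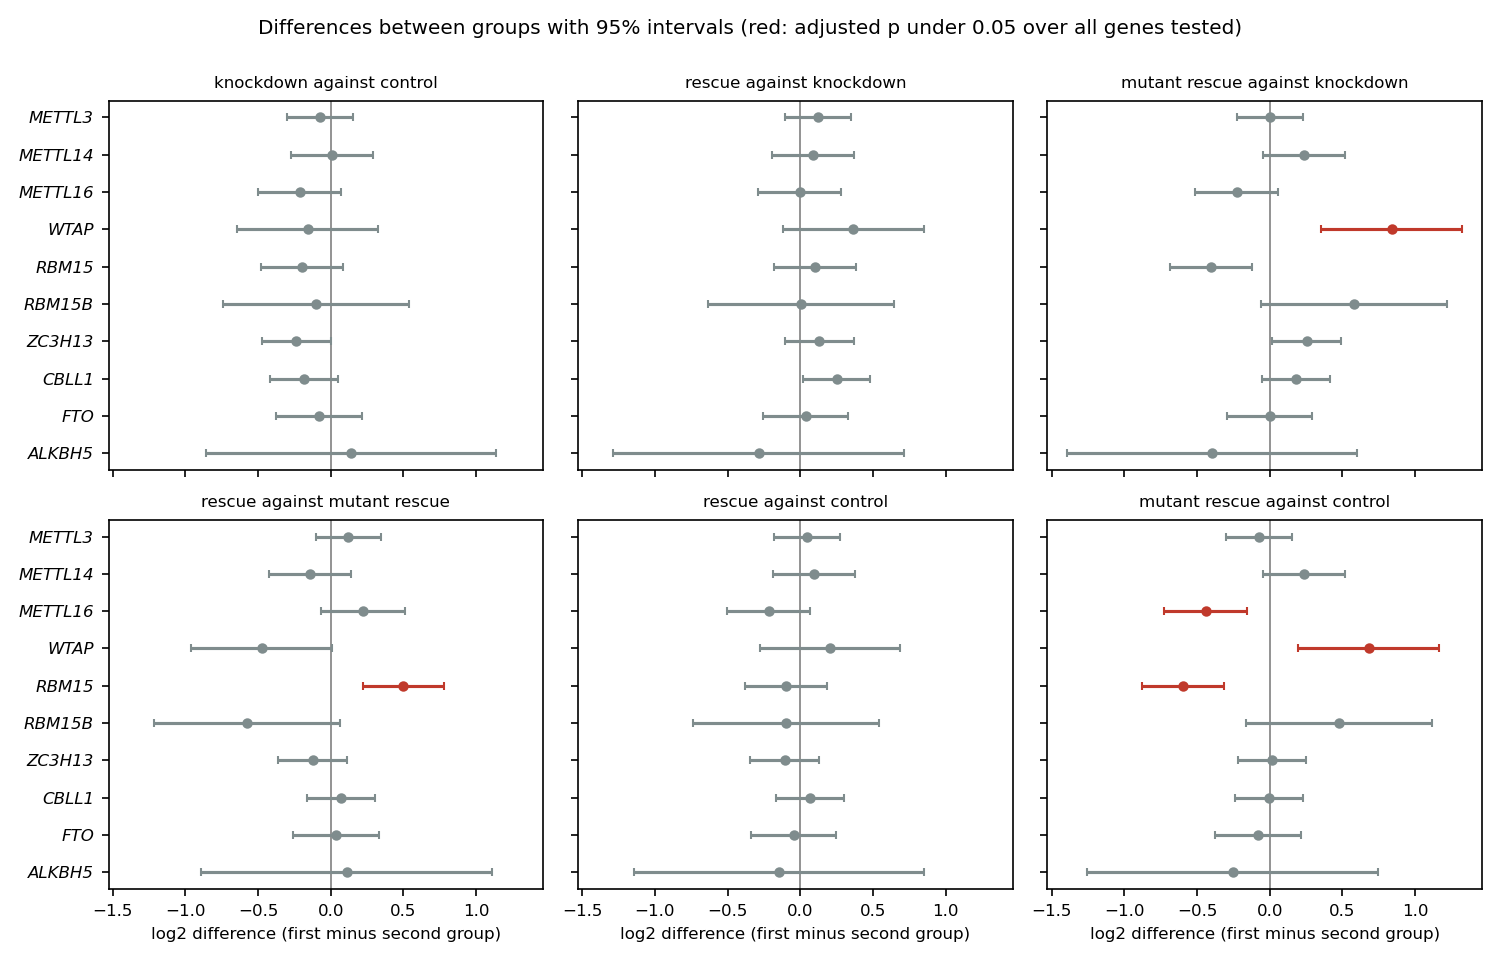
Log2 difference with its 95% interval (horizontal axis) for each of the 10 members in the 6 contrasts, 1 panel a contrast, with called members in red. The intervals of WTAP (0.36 to 1.33 and 0.20 to 1.17) and of RBM15 (-0.88 to -0.32) in mutant rescue exclude 0, and those of METTL3, METTL14 and FTO include 0 in every contrast.

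FTO, the first eraser found, removes the methyl group of N6-methyladenosine and, from capped ends, of N6,2'-O-dimethyladenosine. FTO (chromosome 16, 53701692 to 54158512, plus strand) read 9.51 and 9.33 in control, 9.36 and 9.32 in knockdown, 9.37 and 9.39 in rescue and 9.51 and 9.18 in mutant rescue. Both rescue libraries lay just above both knockdown libraries and all other groups overlapped, and the range over 8 libraries, 0.34, was smaller than that of all but 16.7% of genes. Knockdown differed from control by -0.08 (95% interval -0.37 to 0.21, adjusted p = 0.722). ALKBH5, the nuclear eraser (chromosome 17, 18183078 to 18209954, plus strand), read 10.65 and 10.62 in control, 11.03 and 10.52 in knockdown, 11.16 and 9.82 in rescue and 10.90 and 9.86 in mutant rescue. Replicate 1 was higher in all 4 groups, and its libraries spread more within rescue (SD 0.95, n = 2) than any group means differed. Its difference in knockdown was 0.14 (interval -0.86 to 1.14, adjusted p = 0.871), which leaves changes of either sign possible.

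**Figure D4:**
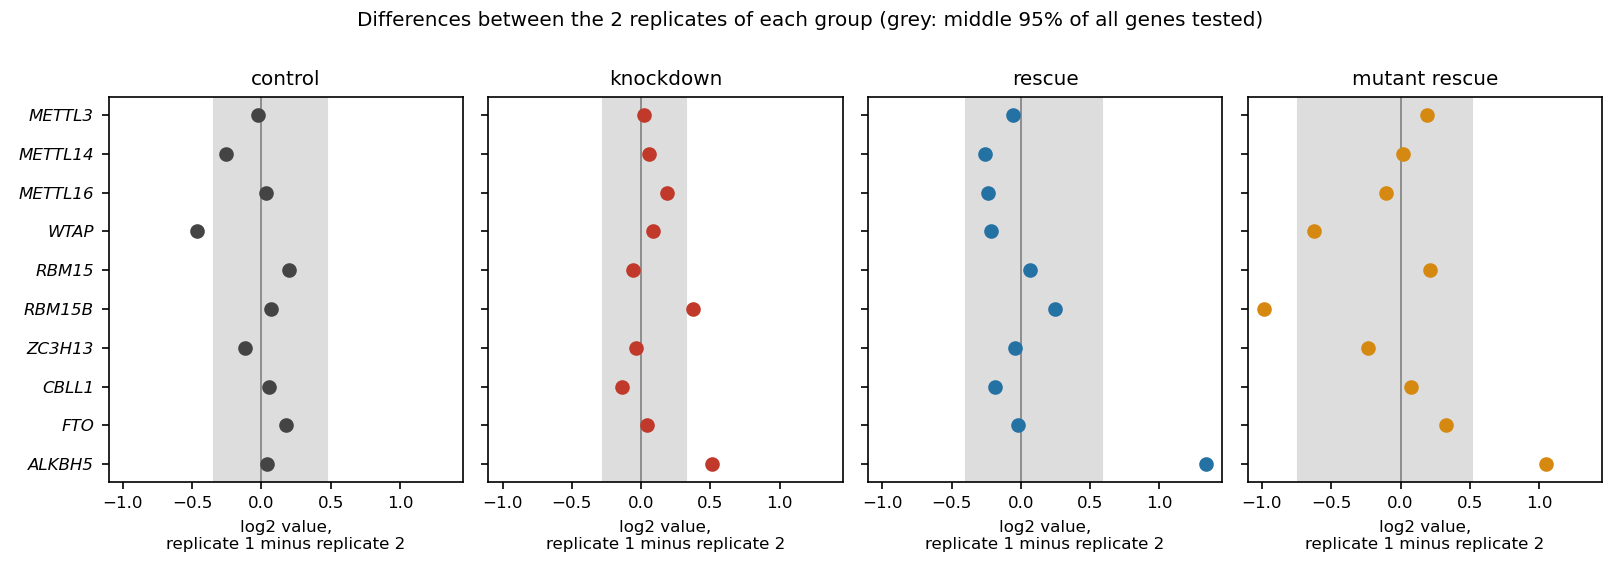
Log2 value of replicate 1 minus replicate 2 (horizontal axis) for each member, 1 panel a group, with the middle 95% of all 13030 genes in grey. ALKBH5 lies outside the grey range in knockdown (0.51), rescue (1.34) and mutant rescue (1.05), RBM15B in knockdown (0.38) and mutant rescue (-0.99), and WTAP in control (-0.46).

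By the rule for likeness, the 3 genes whose log2 values over the 8 libraries correlated most with each called member are named, as a description. The values for WTAP are C16orf54 (Pearson's r 0.996), HNRNPH1 (0.993) and SLC35F2 (0.991), and those for RBM15 are FANCC (0.991), FBXO28 (0.987) and TUBGCP5 (0.985). For METTL16 they are BMPR1B (0.953), ARFIP1 (0.947) and ZDHHC21 (0.939). Among the members METTL14 was most like WTAP (r 0.80), RBM15 least (-0.82), and RBM15 and METTL16 were most like each other (0.72). The 8 libraries share their group structure.

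Around the members, other factors of the pathway were counted from lists of symbols. Of 6 other writers and partners of adenosine methylation (VIRMA, PCIF1, METTL5, TRMT112, ZCCHC4 and METTL4) 1 fell in knockdown, where 12.8% of all genes were called. It was TRMT112, the activator of several methyltransferases (-0.52, SE 0.13, adjusted p = 0.0345). None was called by limma as fitted here in any other contrast, where 0 to 4 of the 6 had an unadjusted p under 0.05. That call was lost without control replicate 2, either knockdown library and either rescue library (adjusted p = 0.182, 0.192, 0.201, 0.0520 and 0.0521). By the authors' deposited adjusted p 2 of the 6 were called in knockdown, TRMT112 (-0.68, adjusted p = 0.000236) and METTL5 (-0.52, adjusted p = 0.0124). VIRMA, the scaffold that binds WTAP and the METTL3 core, is listed under its older symbol KIAA1429 and read 10.85 and 10.39 in control, 10.78 and 10.97 in knockdown, 10.36 and 10.67 in rescue and 10.37 and 10.14 in mutant rescue. It was 0.62 lower in mutant rescue than in knockdown (SE 0.17, adjusted p = 0.0532), just short of the threshold, and the authors' deposited table called it (-0.79, adjusted p = 0.00371). It passed with libraries centred on their median (-0.67, adjusted p = 0.0365), with quantile normalization (-0.76, 0.0468), without control replicate 1 or 2 (0.0474 and 0.0473) and without mutant rescue replicate 1 (-0.73, 0.0408). Without knockdown replicate 1 or 2 or mutant rescue replicate 2 the adjusted p was 0.174, 0.287 and 0.166. Its direction there was opposite to that of WTAP.

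A further list held 16 genes, readers of the mark together with G3BP2 and G3BP1, stress granule genes that are not established as readers. Of the 16, 4 fell in knockdown, where 12.8% of all genes were called: G3BP2, G3BP1, YTHDF2, and IGF2BP2, the knocked-down gene itself. By the authors' deposited adjusted p 9 of the 16 were called, and 20.1% of all genes tested. G3BP2 stood at 11.65 and 11.48 in control and 10.06 and 10.11 in knockdown, and G3BP1 at 12.66 and 12.62 and at 11.61 and 11.67. Their differences were -1.48 (SE 0.12, adjusted p = 0.000614) and -1.001 (SE 0.08, adjusted p = 0.000839), called in all 8 fits that left out 1 library. Both were also called below control in rescue (-0.88 and -0.58, adjusted p = 0.00295 and 0.00435) and in mutant rescue (-1.47 and -1.004, adjusted p = 0.000160 and 0.000177), each in all 8 such fits. YTHDF2 fell by 0.42 (adjusted p = 0.0443), and of the fits that left out 1 library only those without a mutant rescue library kept the call (adjusted p = 0.0640 to 0.264 in the others). It was also lost with no filter (0.0549), no mean trend (0.0517), median centring (0.0541) and quantile normalization (-0.28, 0.137). The authors' deposited table called YTHDF2 in knockdown (-0.55, adjusted p = 0.000308). In rescue against knockdown, with 4.24% of all genes called, 3 of the 16 rose, IGF2BP2, G3BP2 (0.60, adjusted p = 0.0275) and G3BP1 (0.42, adjusted p = 0.0288). The G3BP2 and G3BP1 calls were lost without either knockdown or either rescue library (adjusted p = 0.0982 to 0.299). With quantile normalization neither passed (0.50, adjusted p = 0.0576 for G3BP2, and 0.25, 0.168 for G3BP1), and G3BP1 did not pass with median centring (0.0625). The authors' deposited table called both G3BP2 and G3BP1 there (0.75 and 0.51, adjusted p = 5.51e-06 and 0.000242). Mutant rescue against knockdown, with 11.3% of all genes called, called IGF2BP2 alone of the 16 (0.61, adjusted p = 0.0298). That call was lost when knockdown replicate 1 or 2 was left out, at 0.60 and 0.61. It was also lost in a fit of only the groups compared (adjusted p = 0.0722) and with quantile normalization (0.0641). Rescue against mutant rescue, with 10.5% of all genes called, called 2 of the 16, G3BP1 (0.43, adjusted p = 0.0190) and G3BP2 (0.59, adjusted p = 0.0195). Neither passed in a fit of only the groups compared (0.112 and 0.102). By the authors' deposited adjusted p only G3BP2 passed (0.0758 and 0.0265). Each call was kept in 3 of the 8 fits that left out 1 library. Both were lost without either knockdown library, either rescue library or mutant rescue replicate 2. The differences in these 8 fits ran from 0.39 to 0.47 for G3BP1 and from 0.45 to 0.73 for G3BP2. In mutant rescue against control HNRNPA2B1, a nuclear reader, fell by 0.57 (adjusted p = 0.0156), a call lost without control replicate 2 (adjusted p = 0.0769), without mutant rescue replicate 2 (0.0564) and in a fit of only the groups compared (0.0721). The authors' deposited table called HNRNPA2B1 there as well (-0.66, adjusted p = 0.0198). The median over the 16 listed genes in knockdown, G3BP2 and G3BP1 among them, was -0.33, against -0.17 over the 8 writers.

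The next list held 20 genes, other RNA methyltransferases together with METTL7A and METTL17, which are not established as RNA methyltransferases. Of the 20, 1 rose and 2 fell in knockdown (12.8% of all genes were called). In rescue against knockdown 1 rose and 1 fell (4.24%), and in mutant rescue against knockdown 2 rose and 1 fell (11.3%). Against control, 1 rose in rescue (7.18%), and 3 rose and 2 fell in mutant rescue (24.9%), and 1 was higher in rescue than in mutant rescue (10.5%). In knockdown 10 of the 20 had an unadjusted p under 0.05 by limma. By the authors' deposited adjusted p 9 of the 20 were called there, and 20.1% of all genes tested. Those that limma did not call were FBL, DIMT1, RNMT, METTL15 and TRMT61A, all lower, and CMTR1, higher. The 2 that rose in mutant rescue against knockdown were METTL17 (0.39, adjusted p = 0.0436) and NSUN5 (0.42, adjusted p = 0.0460). Both calls were lost with no filter, no mean trend, median centring and quantile normalization (adjusted p = 0.0514 to 0.156). The authors' deposited adjusted p was 0.125 and 0.0687. NSUN5 also rose in mutant rescue against control (0.44, adjusted p = 0.0212), where the authors' adjusted p was 0.0569. CMTR1, which methylates the cap-adjacent nucleotide and is itself an interferon-induced gene, was called in 4 contrasts, more than any other gene of the list. It read 9.53 and 9.17 in control, 9.80 and 9.91 in knockdown, 10.83 and 10.99 in rescue and 10.37 and 10.05 in mutant rescue, in the order in which the interferon list stood. It rose by 1.56 in rescue (SE 0.15, adjusted p = 0.000415) and by 0.86 in mutant rescue (SE 0.15, adjusted p = 0.00563), both against control and both called in all 8 fits. The contribution of the interferon response to CMTR1 was not tested. In mutant rescue against control, RNMT, the cap guanine-N7 methyltransferase, fell by 0.55 (adjusted p = 0.00971), and METTL15 fell by 0.52 (adjusted p = 0.0117). Both calls were lost without control replicate 1 (adjusted p = 0.0649 and 0.0660). METTL1 and WDR4, the 2 subunits of a transfer RNA guanosine methyltransferase, were called lower in knockdown (-0.43 and -0.44, adjusted p = 0.0353 and 0.0294). The authors' deposited table called both (-0.60 each, adjusted p = 0.00520 and 0.00455). The METTL1 call was lost without control replicate 2, either knockdown library and either rescue library (adjusted p = 0.161, 0.216, 0.197, 0.0563 and 0.0563), with no filter (0.0566) and with quantile normalization (0.0518), and the WDR4 call without either control or either knockdown library (0.0819, 0.126, 0.249 and 0.106). METTL7A, whose product lies on lipid droplets, was 0.46 higher in knockdown than in control (adjusted p = 0.0342), a call that, with 1 library left out, held only without a mutant rescue library (adjusted p = 0.0548 to 0.263 in the other fits) and was lost with quantile normalization (0.0596). It was lower than knockdown in rescue (-0.65, adjusted p = 0.0169) and in mutant rescue (-0.74, adjusted p = 0.0107), calls lost without either knockdown library and, for rescue, without either rescue library (adjusted p = 0.0793 to 0.221), and for mutant rescue in a fit of only the groups compared (0.0549).

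Of 9 genes of S-adenosylmethionine supply 8 were tested and 1 was called, in 1 contrast, where 24.9% of all genes were called. AHCYL1 was 1.02 higher in mutant rescue than in control (SE 0.32, adjusted p = 0.0477). Its values were 7.46 and 8.68 in mutant rescue, and 6.96 to 7.36 in every other library. The call was lost in 7 of the 8 fits that left out 1 library, kept only without mutant rescue replicate 1, and without replicate 2 the difference was 0.41. It was also lost with no filter, no mean trend, a robust prior, quantile normalization and a fit of only the groups compared (adjusted p = 0.0525 to 0.0817). The authors' deposited table called AHCYL1 there (1.86, adjusted p = 0.000719). Of 7 other AlkB homologues, the family of ALKBH5 and FTO, 1 was called, in a contrast where 11.3% of all genes were called. ALKBH2, a DNA repair enzyme, was 0.50 higher in mutant rescue than in knockdown (SE 0.11, adjusted p = 0.0327). That call was lost without either knockdown library and without mutant rescue replicate 2 (adjusted p = 0.174, 0.218 and 0.0986), in a fit of only the groups compared (0.0729), with quantile normalization (0.0632) and by the authors' deposited adjusted p (0.0622). All 7 had higher values in both mutant rescue libraries than in both knockdown libraries, with a median of 0.39, and 37.1% of all genes did so.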

How the data were processed

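The members and gene lists were chosen with earlier results of these data known. Groups and replicate numbers come from the sample titles. Per the file headers, HOMER's getDiffExpression.pl made the table, and GRCh38, kallisto, Trim Galore and HOMER appear in the submitters' processing notes without roles or versions. Each library has a column of log2 values, normalized by the authors before they were deposited. Their log2 fold changes and p-values for each pair of groups were deposited in the same table, and no source used here states the model. Of 35370 rows, 1 without a symbol was left out, and 10937 genes are at 0 in every library. Counts were not used here, so depth and counting error are unknown, and 2 libraries a group set the precision.

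The filter kept 13030 genes, those that reached 1 ppm of the linear total in 2 or more libraries. Limma (version 3.58.1, R 4.3.3) fitted 4 group means to 8 libraries, with 4 residual degrees of freedom, empirical Bayes moderation and a mean trend. The procedure was tested on simulated data. All members are named, with up to 4 called genes per list and contrast and the 3 genes most correlated with each called member; KIAA1429 and VPRBP were matched to VIRMA and DCAF1 through RefSeq synonyms. Gene positions are from GENCODE v29. Alternatives were another filter, no filter, no trend, a robust prior, median centring, quantile normalization, a fit of only the groups compared, a replicate block, the authors' adjusted p, and leaving out each library.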

Additional observations from a re-analysis of the deposited data

How the results depend on the processing

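Over the 10 members, 6 contrasts and 17 alternatives, 922 of the member values kept their direction and side of the threshold, 54 turned sign, 37 lost the call and 7 gained it. The 922 include members that were never called, while all 37 losses fell on the few member calls. Apart from leaving out a library, the WTAP calls were kept in 5 of 9 alternatives against knockdown and 3 of 9 against control. Those of RBM15 were kept in 9 of 9 against control and 7 of 9 against rescue, and that of METTL16 in 7 of 9. With only 2 libraries a group, leaving 1 out assumes that the lone library varies like the other groups. Depth limits no value that can be stated here, since no counts were used.

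Members called in mutant rescue against knockdown numbered 0 with no filter, in the fit of only the groups compared, with no mean trend and with quantile normalization, and in rescue against mutant rescue 0 in the fit of only the groups compared and by the authors' adjusted p. In mutant rescue against control 1 was called in the fit of only the groups compared, and in rescue against knockdown 1 by the authors' adjusted p. Over all genes, the fit of only the groups compared called 2620, 1246, 279, 192 and 1793 in knockdown against control, rescue against knockdown, mutant rescue against knockdown, rescue against mutant rescue and mutant rescue against control. Quantile normalization called 717 in mutant rescue against knockdown, and the authors' adjusted p 2615 in knockdown against control and 1318 in rescue against knockdown. The main counts were 1667, 553, 1473, 1370 and 3241. The cause was not tested.

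Values near 0 turned sign. With libraries centred on their median they were METTL14 -0.0033 in knockdown against control, RBM15B -0.017 in rescue against knockdown, METTL3 -0.050 and FTO -0.051 in mutant rescue against knockdown, and ZC3H13 -0.044 in mutant rescue against control. With quantile normalization they were METTL14 -0.0011 and FTO -0.027 in rescue against knockdown, METTL3 -0.096 and FTO -0.068 in mutant rescue against knockdown, and ZC3H13 -0.059 in mutant rescue against control. In the authors' table they were METTL14 -0.043, RBM15B -0.011, METTL3 -0.020, FTO -0.011, ALKBH5 0.038 (rescue against control) and CBLL1 0.015 (mutant rescue against control).

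With 1 library left out, members called ranged from 0 to 4 in mutant rescue against knockdown, 0 to 3 in rescue against mutant rescue and 0 to 3 in mutant rescue against control, and were 0 in the rest. All genes called ranged from 179 to 2359 in knockdown against control, 176 to 864 in rescue against knockdown, 79 to 2801 in mutant rescue against knockdown, 241 to 2870 in rescue against mutant rescue, 361 to 1422 in rescue against control and 1440 to 3953 in mutant rescue against control. In knockdown against control these ranges were ALKBH5 -0.12 to 0.40, FTO -0.17 to 0.0076, METTL14 -0.12 to 0.13, RBM15B -0.29 to 0.088 and WTAP -0.39 to 0.072. In mutant rescue against control these ranges were ALKBH5 -0.78 to 0.27, CBLL1 -0.039 to 0.033, FTO -0.25 to 0.085, IGF2BP2 -0.23 to 0.11, METTL3 -0.17 to 0.022, RBM15B -0.015 to 0.97 and ZC3H13 -0.10 to 0.13. In mutant rescue against knockdown these ranges were ALKBH5 -0.92 to 0.13, FTO -0.16 to 0.17 and METTL3 -0.094 to 0.10. In rescue against control these ranges were ALKBH5 -0.82 to 0.52, CBLL1 -0.027 to 0.16, FTO -0.13 to 0.044, METTL14 -0.035 to 0.22, RBM15 -0.20 to 0.0015, RBM15B -0.22 to 0.027 and WTAP -0.027 to 0.44. In rescue against knockdown these ranges were ALKBH5 -0.96 to 0.38, METTL14 -0.041 to 0.22, METTL16 -0.12 to 0.12 and RBM15B -0.19 to 0.19. In rescue against mutant rescue these ranges were ALKBH5 -0.56 to 0.78, CBLL1 -0.024 to 0.16 and FTO -0.13 to 0.20.

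Deviations of same-numbered libraries correlated from -0.02 to 0.41 over 6 pairs of groups and exceeded 0.1 in 3 of them, not in all, so the numbers were not taken to pair the samples. This does not show that no batch is shared. With the replicate number as a block, members called stayed at 0, 0, 1, 1, 0 and 3 and all genes called were 1787, 592, 1805, 1765, 1010 and 3541, in the order knockdown against control, rescue against knockdown, mutant rescue against knockdown, rescue against mutant rescue, rescue against control and mutant rescue against control. KIAA1429 passed in mutant rescue against knockdown with the replicate block (adjusted p = 0.0491).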

Other observations

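ALKBH5, the nuclear eraser, differed more between the 2 replicates of a group than between groups. Its replicate 1 exceeded replicate 2 by 0.51 in knockdown, where 113 of 13030 genes had a larger gap, by 1.34 in rescue (16 genes) and by 1.05 in mutant rescue (105 genes), but by 0.04 in control. The genes with the most similar pattern over the 8 libraries, chosen after the values were seen, were SDF4 (Pearson's r 0.992), TERF2IP (0.988) and EPS8L1 (0.981). RBM15B had a gap of -0.99 in mutant rescue (139 genes larger), and SAMD1 (0.988), HNRNPAB (0.979) and PTOV1 (0.978) were most like it, also chosen after the values were seen.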
